A study of Mus musculus with 1479 samples.

Results

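Cluster 2 is 1 of the 11 clusters that the authors assigned to single cells of the mouse urinary bladder, and its members are the cells whose cluster label is 2. They numbered 64 of 1479 cells, or 4.73% of the 1354 cells outside the mural cluster 10 (exact Clopper-Pearson 95% interval 3.66 to 6.00%). The cells came from adult male mice of 10 to 20 weeks, were sorted singly into the wells of 384-well plates and were sequenced with Smart-seq2, which copies full-length transcripts and carries no molecular identifiers. Endothelial cells bearing CD31 had been gated out, and cells had been gated on a fluorescent reporter or on antibodies to the PDGF receptors alpha and beta.

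All 5 mouse lines among the bladder samples gave cells of cluster 2. PdgfrbGFP carries a transgene in which regulatory sequence of Pdgfrb drives a green protein, and it gave 19 of the cells. PdgfraGFP carries a nuclear green protein in the Pdgfra gene itself and gave 25. Cspg4dsRED and Acta2GFP are transgenes driven by Cspg4 and Acta2 sequence and gave 4 and 3 cells, and C57BL6 mice without a reporter gave 13. A reporter shows the cells in which its driving sequence is active or was active recently, so the lines differ in which cells could be sorted. No label names an animal, and the PdgfrbGFP plates may hold cells of the same mice.

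Fibroblasts make and maintain the collagen, elastic and proteoglycan matrix of the bladder wall, and they differ from mural cells in lacking most contractile genes. Those of the tissue around vessels carry the surface proteins Pi16 and Cd55 and the microfibril protein Mfap5 in several organs. In single-cell sequencing, rare transcripts are missed more often than abundant ones where reads are few.

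The comparison cells were those of clusters 1, 3, 6, 7 and 8, which hold 1049 fibroblasts, and cluster 2 was set against them only within the same line on the same plate. In 6 such groups there were at least 3 cells of both kinds. The cells of cluster 2 numbered 3 for Acta2GFP on plate bladder_515s, 13 for C57BL6 on bladder_443s, 3 for Cspg4dsRED on bladder_352s and 25 for PdgfraGFP on bladder_689s. PdgfrbGFP gave 11 on bladder_074s and 7 on bladder_881s. The comparison cells of these groups numbered 890 in all, with 22 in the smallest set, that of Cspg4dsRED. They held 62 of the 64 cells. The other two, a PdgfrbGFP cell on bladder_515s and a Cspg4dsRED cell on bladder_689s, entered the counts over single cells but no sum over a group. Because the clusters were made by the authors from the same expression values, a p-value for a gene says how well a difference repeated over the 6 groups and is no independent evidence that cluster 2 is a class of its own. Plate position is not a gene value, whereas the read total of a cell is the sum of its gene counts.

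The median cell of cluster 2 held 109301 gene reads, with a range of 50749 to 665151, against a median of 245774 over the 1049 comparison cells. Within each of the 6 groups the median of cluster 2 was the lower one. It was 62536 against 149703 reads for Acta2GFP, 168955 against 296431 for C57BL6, and 123202 against 129703 for Cspg4dsRED. It was 84177 against 158246 for PdgfraGFP, and for PdgfrbGFP 147418 against 266066 on bladder_074s and 221028 against 386647 on bladder_881s. The ranges of single cells overlapped in every group, and in Cspg4dsRED the medians were close.

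The difference of group medians, cluster 2 minus comparison cells, averaged -96579.9 reads (exact two-sided sign-flip permutation test over 6 groups, unadjusted p = 0.03125, the smallest p that 6 groups allow). Medians were an alternative to the planned means. Low read totals in cluster 2 were known from earlier results of these data, so the p-values of this paragraph are a description and no independent evidence. The group means were 186310 ± 55958 against 260823 ± 111048 reads (SD, n = 6 groups), lower in 4 of 6 groups (exact sign-flip permutation p = 0.1875, adjusted over 8 measures 0.25). A single Acta2GFP cell decides the sign in its group: it held 665151 reads, 84.5% of the reads of the 3 cells, with 3078 genes detected and a mitochondrial share of 0.940%. The next deepest cell of cluster 2 held 375717.

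**Figure D1:**
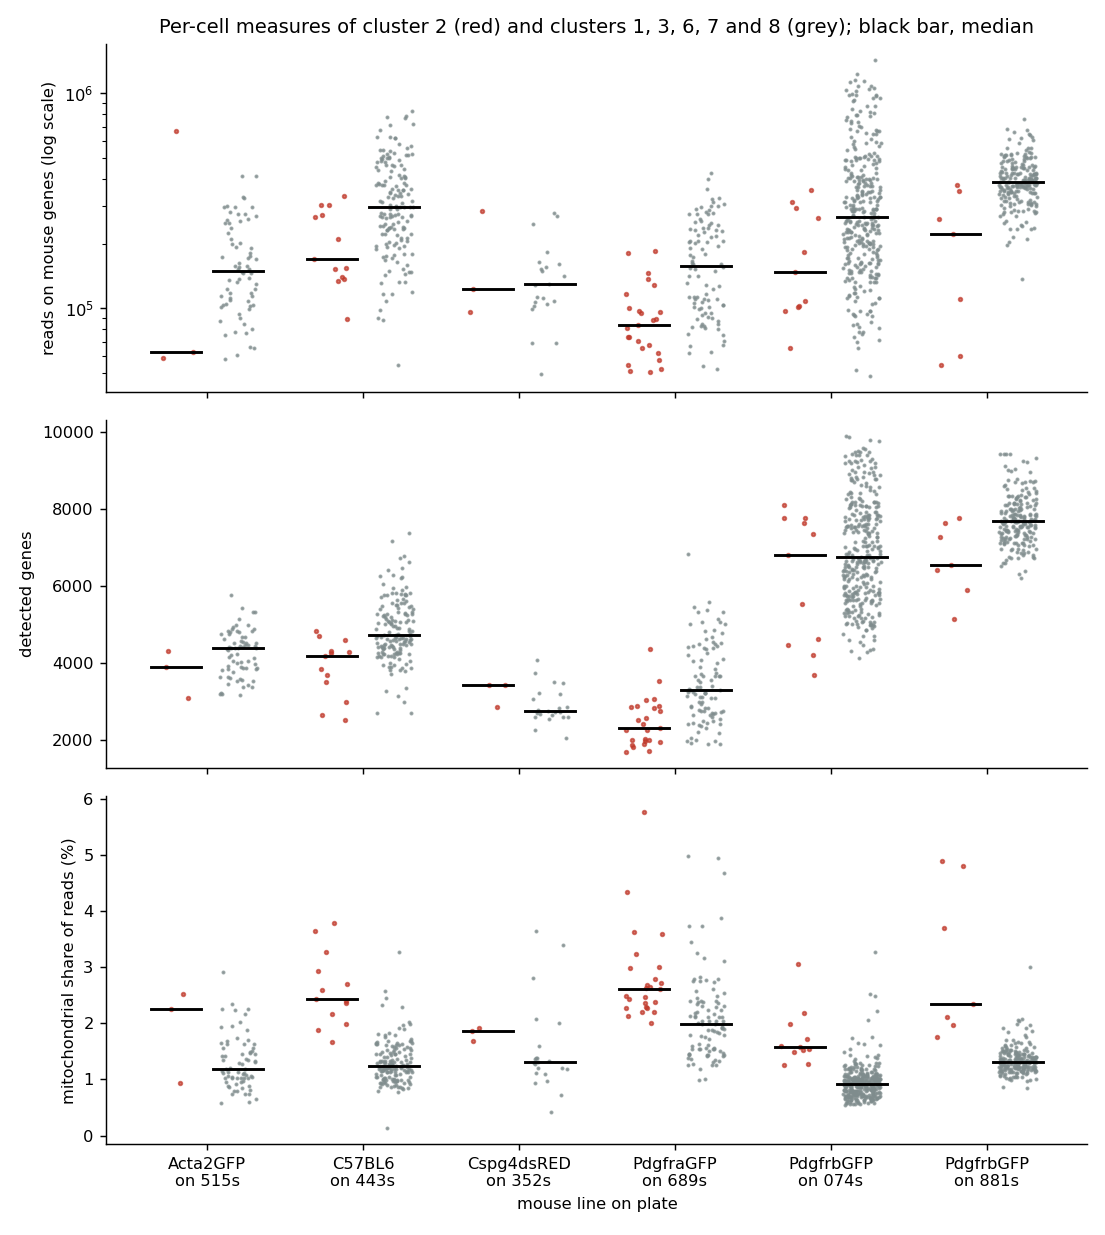
Per-cell gene reads (log axis), detected genes and mitochondrial share of reads in percent for the 6 line-and-plate groups, with cells of cluster 2 in red, comparison cells of clusters 1, 3, 6, 7 and 8 in grey and a black bar at each class median. The red medians of reads lie below and those of mitochondrial share above the grey ones in all 6 groups, and 1 red Acta2GFP cell stands alone at 665151 reads.

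The number of detected genes did not pass the adjusted threshold. The group means were 4353 ± 1679 genes against 5020 ± 1920 (SD, n = 6), lower in 5 of 6 groups (exact sign-flip permutation p = 0.0625, adjusted 0.167). By medians cluster 2 was lower in 4 of 6 groups and higher in Cspg4dsRED (3411 against 2731.5) and in PdgfrbGFP on bladder_074s (6783 against 6735.5). When every cell was thinned to 50000 reads, which left out 6 of the 1479 cells, the means were 3032 ± 914 against 3378 ± 848 genes, again lower in 5 of 6 groups (exact permutation p = 0.0625, adjusted 0.167).

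The mitochondrial share of reads was 2.33 ± 0.573% in cluster 2 and 1.43 ± 0.385% in the comparison cells (SD, n = 6), a difference of 0.902 ± 0.525 percentage points that had the same direction in 6 of 6 groups. The exact sign-flip permutation p of 0.03125 is again the smallest possible, and it becomes 0.167 after adjustment over 8 measures. Mitochondrial reads belong to the clustered values, so the share is a description of the cluster. The ERCC spike-in share was 1.99 ± 1.01% against 1.21 ± 0.492%, higher in 4 of 6 groups (exact permutation p = 0.125, adjusted 0.2). The number of spike-in species seen at 200 spike-in reads was 14.9 ± 2.77 against 15.8 ± 3.98, with 5 cells of cluster 2 left out for having fewer (exact permutation p = 0.28125, adjusted 0.321). The 50 most abundant genes took 24.3 ± 5.03% of a cell's reads against 21.6 ± 4.82% (exact permutation p = 0.125, adjusted 0.2). None of the 8 measures passed the adjusted threshold.

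Reads of the fibroblast markers were as abundant in cluster 2 as in the comparison cells. The 15 fibroblast markers summed to 29308 reads per 500000 in cluster 2, with group values from 23508 to 37503, and to 29888 in the comparison cells. Every marker of this list was above 0. At 50000 reads, Dcn, which encodes the proteoglycan decorin, had a read in 64 of 64 cells, Pdgfra in 57 of 64 (89.1%) and Pdgfrb in 43 of 64 (67.2%). In the comparison cells these shares were 94.4% for Pdgfra and 89.6% for Pdgfrb, so Pdgfrb was read in fewer cells of cluster 2, although in matched cells, described below, the share was 65.9%. The authors had removed cells without reads of either PDGF receptor, and cells with endothelial or immune signatures, so the detection of the receptors and the low sums of those markers are in part set by that filter.

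Markers of other cell types were low. The 14 mural and smooth muscle markers summed to 153.1 reads per 500000 (range over groups 50.6 to 333.9) against 150.2 in the comparison cells, and none of them was at 0. Myh11, smooth muscle myosin, had a read in 13 of 64 thinned cells (20.3%) against 16.7% of comparison cells and 98.4% of the mural cluster 10. The 12 immune markers summed to 15.7 (2.82 to 43.8) against 21.5, with Cd3e at 0, and Ptprc was read in 0 of 64 thinned cells (exact 95% upper bound 5.60%). The 10 endothelial markers summed to 33.8 (2.02 to 106.6) against 30.1, and none was at 0.

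The remaining lists were uneven between groups. The 13 urothelial markers summed to 48.1 (0.752 to 269.8) against 24.9, with Krt14, Epcam and Cdh1 at 0. The 9 Schwann and neural markers summed to 99.8 (12.4 to 189.98) against 60.7, with the glial markers Sox10 and Gfap and the channel gene Kcna1 among those at 0. The 6 mesothelial markers found in the table summed to 116.5 (5.64 to 342.9) against 46.6, with Lrrn4 at 0. The 10 markers of sub-epithelial fibroblasts summed to 71.4 (1.17 to 146.9) against 202.5. The 5 erythroid markers summed to 1.57 against 0.777, with Hbb-bt and Alas2 at 0. The part of these transcripts in the differences below was not tested.

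The share of fibroblast-cluster cells that belonged to cluster 2 differed between lines. It was 17.01% for PdgfraGFP (25 cells, exact Clopper-Pearson 95% interval 11.3 to 24.1%) and 6.95% for C57BL6 (13 cells, 3.75 to 11.6%). It was 2.48% for PdgfrbGFP (19 of 765, 1.502 to 3.85%), 2.56% for Acta2GFP (3 cells, 0.532 to 7.31%) and 2.90% for Cspg4dsRED (4 cells, 0.795 to 7.26%). PdgfraGFP cells made up 39.1% of the cluster. Each line other than PdgfrbGFP had its cluster 2 cells mainly on 1 plate, so that line and plate cannot be told apart, and the intervals cover counting error only.

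Position on the plate was recorded in the well name. The mean distance to the plate edge was 2.59 ± 0.799 wells in cluster 2 and 2.80 ± 0.457 in comparison cells (exact sign-flip permutation p = 0.59375, adjusted 0.594). On bladder_074s, 6 of 40 occupied neighbouring wells of cluster 2 cells also held cluster 2 cells (15%), where 2.78% of the other fibroblasts of the plate were in the cluster. On bladder_443s it was 6 of 34 (17.6%, against 6.45%), and on bladder_689s 12 of 69 (17.4%, against 16.03%). On bladder_881s it was 2 of 22 (9.09%, against 2.49%), and on bladder_352s and bladder_515s it was 0 of 9 and 0 of 12. These are counts of few pairs, with no test.

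To see how far the cluster could be found again on another plate, each thinned cell was correlated with the mean profile of every cluster made without its own plate, over the 2000 most variable genes. Of the 64 cells of cluster 2, 19 (29.7%) were nearest to the mean of cluster 2, 19 to cluster 3, 11 to cluster 1, 7 to cluster 6, 3 each to clusters 7 and 8 and 1 each to clusters 9 and 11. The same share for their own cluster was 78.1% in cluster 1, 77.3% in cluster 3, 74.3% in cluster 6, 82.9% in cluster 7 and 74.2% in cluster 8. In clusters 5, 9 and 11, outside the comparison, it was 97.4%, 5.49% and 7.84%, the last 2 lower than in cluster 2. A cluster held mainly on 1 plate has a mean from few cells once that plate is left out. How far this bears on clusters 9 and 11 was not tested, so their shares are no benchmark for cluster 2. The mean correlation of cluster 2 cells was 0.246 with the mean of cluster 2 and 0.246 with that of cluster 3.

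The share varied with the group. It was 9 of 13 for C57BL6, 5 of 7 for PdgfrbGFP on bladder_881s, 2 of 3 for Acta2GFP and 1 of 3 for Cspg4dsRED on bladder_352s, but 1 of 25 for PdgfraGFP and 1 of 11 for PdgfrbGFP on bladder_074s. Of the 6 groups, the one with the most cells of the cluster was also the one whose cells were least often nearest to its mean on other plates. With all genes above 1 CPM in place of the variable ones the count was 29 of 64, and without thinning it was 17. Of the matched comparison cells, 3.25% were nearest to the mean of cluster 2, and 14.6% were with all genes above 1 CPM.

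Against all comparison cells, 480 of 13119 tested genes (3.66%) passed an adjusted p of 0.05 and a change of 1 on the log2 scale in edgeR's quasi-likelihood test on sums per group. Of these, 17 were higher in cluster 2 (0.13%) and 463 lower (3.53%). This split rests on the scaling: the TMM factors raised cluster 2 by a mean of 0.46 log2 units over a division by read totals, the median of all tested genes was still -1.43, and with that median set to 0 the test called 550 genes, of which 497 were higher. The genes called lower were nearly all rare. Of the 463, 402 had 10 or fewer reads among the 9730980 gene reads of the cluster 2 cells and 100 had none, and 30 had a mean level of 20 CPM or more. Leaving out any 1 of the 6 groups left 0 to 9 calls, and leaving out the deep Acta2GFP cell lowered the called share from 3.66% to 1.41% of the tested genes.

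With cells thinned to 50000 reads none of the 17 genes called higher passed both limits, as 0 of 17 were shared with the 2 calls made there by edgeR (2193 genes had an unadjusted p under 0.05), and 9 of the 17 were shared without the deep Acta2GFP cell. Of the 17, 3 are encoded by the mitochondrial genome. The level of mt-Cytb, the cytochrome b of complex III, ran over the 6 groups from 1281 to 3792 reads per 500000 with a median of 1671 in cluster 2 and from 799.6 to 1136 with a median of 1030 in the comparison cells. The 2 ranges did not overlap, and the log2 fold change was 1.25 (SE 0.26, adjusted p = 0.00317 by edgeR's quasi-likelihood test). The others were the ribosomal RNA mt-Rnr1 (1.39, SE 0.34, adjusted p = 0.0280 by edgeR) and mt-Nd1, a complex I subunit (1.19, SE 0.32, adjusted p = 0.0316 by edgeR). The large mitochondrial ribosomal RNA, mt-Rnr2, had an adjusted p of 8.45e-05 by edgeR but a log2 fold change of 0.96, short of the limit.

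Malat1, a long RNA that stays in the nucleus, was also called (1945 ± 429 against 1283 ± 665 reads per 500000, SD, n = 6, log2 fold change 1.11, adjusted p = 0.0174 by edgeR). Cox4i1, a nuclear-encoded subunit of complex IV, had 406 ± 138.4 against 224.1 ± 78.2, and Minos1, part of the complex that shapes the inner mitochondrial membrane, had 182.1 ± 85.4 against 55.4 ± 30.03. Psmb1, a proteasome subunit, had 208.9 ± 94.5 against 78.02 ± 33.996. Exons of Malat1 and of Cox4i1 overlap annotated exons on the opposite strand and those of mt-Nd1 the transfer RNA mt-Ti, and whether the counting used strand is not given in the sources used here.

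Other genes called higher are given singly, and no theme over them was tested. Mfap5, a microfibril-associated glycoprotein, ran from 456 to 791 reads per 500000 with a median of 655 in cluster 2, and from 266.5 to 406 with a median of 338.8 in the comparison cells. The ranges did not overlap, and the log2 fold change was 1.35 (SE 0.40, adjusted p = 0.0425 by edgeR). Among genes at 20 CPM or more, 0.158% had group values in cluster 2 that all lay above those of the comparison cells.

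The phosphatase gene Ptp4a2 ran from 60.2 to 374 with a median of 223.1 in cluster 2, against 33.7 to 122.3 with a median of 43.96, which overlap (log2 fold change 2.41, SE 0.67, adjusted p = 0.0332 by edgeR). The interferon-inducible membrane proteins Ifitm1 and Ifitm2 had 383.8 ± 104.6 against 211.9 ± 73.9 and 577 ± 212.1 against 293.9 ± 100.1. S100a10, the partner of annexin A2, had 534 ± 192.4 against 276.2 ± 93.2, and the LIM domain gene Crip1 433 ± 103.3 against 216.8 ± 46.6. Galectin 1 (Lgals1) had 593 ± 297.3 against 313.7 ± 126.8. Ifitm1 and Ifitm2 are near copies, and reads of one can be counted for the other. Cnpy2 and the Wnt-pathway transcription factor gene Tcf7l2 were called as well.

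Decorin and matrix Gla protein came close. Dcn had 4950 ± 462 reads per 500000 against 3546 ± 705 and a log2 fold change of 0.85 (SE 0.16, adjusted p = 0.000282 by edgeR), and Mgp, an inhibitor of calcification, 2044 ± 454 against 1304 ± 328.9 and 0.97 (SE 0.25, adjusted p = 0.0312 by edgeR). Of the other fibroblast markers, Col1a1 had 3091 ± 827 against 3611 ± 782 reads per 500000 and a log2 fold change of 0.06, Col3a1 2139 ± 499.5 against 2664 ± 726 and 0.07, and Lum 1124 ± 217.7 against 1035 ± 205.7 and 0.60. Levels per read total and TMM-scaled fold changes thus differ in sign for the collagens. They also differ in weighting, since levels are means over cells and fold changes come from summed reads. Mfap5 was the called one of the 15 markers, where 0.13% of all tested genes were called higher.

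Gdf10, which was also called lower, is described below. The other genes named here had 4 to 10 reads in the sums of cluster 2 and means of 11.3 to 23.5 reads per 500000 in the comparison cells. They included the nuclease Mus81, the receptor Fgfr3, the solute carrier Slc35e4, the nucleosome assembly family member Tspyl3, the exonuclease Exo5, the kinase Aatk, the deacetylase Hdac10, the uncharacterised 1600014C10Rik, Zswim4 and the FAD synthase Flad1. Exons of Mus81, Fgfr3 and Flad1 overlap those of Efemp2, G630022F23Rik and Lenep, so their reads cannot be told apart with certainty. At such counts the fold change depends on the fit's prior count, and none is given.

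To set depth aside, each cluster 2 cell was paired within its group with 2 comparison cells of like read total, detected genes and mitochondrial share. The matched cells, 2 for each, came from cluster 7 (44), clusters 6 and 8 (27 each), cluster 3 (19) and cluster 1 (7). Over all cells they had a mean of 159226 reads against 156951 in cluster 2 and 318850 in all comparison cells, 4277 genes against 3980 and 6066, and a mitochondrial share of 2.10% against 2.52% and 1.28%. The match on reads was close over all cells but not in each group. In Acta2GFP, where 1 of the 3 cells is the deep one, the means were 262248 reads in cluster 2 and 144960 in matched cells, in PdgfrbGFP on bladder_881s 205191 and 263859, and in PdgfraGFP 92183 and 105789. Fewer genes were still detected in cluster 2 than in matched cells in 5 of 6 groups. The match on the mitochondrial share was incomplete: group means of the share were 1.89 ± 0.388%, still lower than cluster 2 in 6 of 6 groups. For 43 cells of cluster 2 at least 1 matched cell lay within 1 SD.

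Against the matched cells, 1 of 12262 genes was called (0.00816%), Gdf10. By the same edgeR test 928 genes had an unadjusted p under 0.05, limma-voom called 0 genes and DESeq2 408, of which 44 were higher. With the median gene, at -0.73 in this comparison, set to 0, edgeR called 41 genes, of which 40 were higher. None of the 17 genes called higher against all comparison cells passed the adjusted threshold here. Their log2 fold changes stayed near the former values for Mfap5 (1.22), Ptp4a2 (2.78), Ifitm1 (1.54), Minos1 (2.18) and Psmb1 (1.99), and were smaller for the mitochondrially encoded mt-Cytb (0.65) and mt-Rnr1 (0.79) and for Malat1 (0.47).

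**Figure D2:**
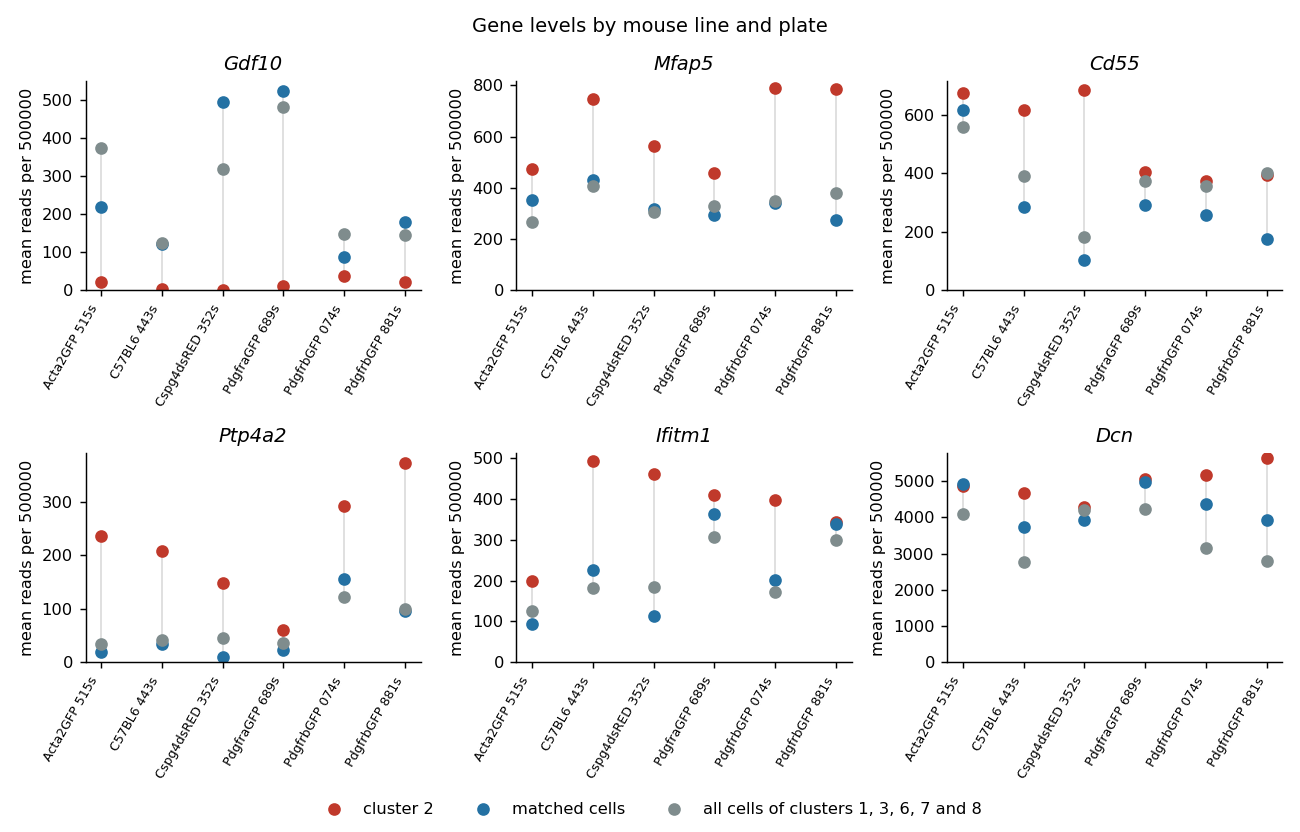
Levels in reads per 500000 of Gdf10, Mfap5, Cd55, Ptp4a2, Ifitm1 and Dcn in the 6 line-and-plate groups, with cluster 2 in red, matched comparison cells in blue and all comparison cells in grey. The highest red value of Gdf10 is 35.7 and the lowest blue one 86.98, whereas the lowest red value of Mfap5, 456, lies above the highest blue one, 429.

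Gdf10 encodes a secreted protein of the bone morphogenetic protein family (ENSMUSG00000021943, GRCm38 chromosome 14, 33923587 to 33937983, plus strand). In cluster 2 its level was 20.0 reads per 500000 for Acta2GFP, 2.24 for C57BL6, 0 for Cspg4dsRED, 11.2 for PdgfraGFP, 35.7 for PdgfrbGFP on bladder_074s and 20.3 on bladder_881s. In the matched cells the values in the same order were 218.99, 121.3, 494.4, 522.4, 86.98 and 177.3, and in all comparison cells 373.4, 122.9, 318.9, 480.9, 148.3 and 143.6. Cluster 2 lay below both in 6 of 6 groups without overlap, as did 0.672% of genes at 20 CPM or more against the matched cells and 2.77% against all comparison cells.

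The log2 fold change of Gdf10 was -4.66 (SE 0.92, adjusted p = 0.000974 by edgeR) against all comparison cells and -4.96 (SE 0.95, adjusted p = 0.00565 by edgeR) against matched cells. The call against all comparison cells was lost without C57BL6 (log2 fold change -4.47, adjusted p = 0.0738 by edgeR), without PdgfraGFP (-4.43, adjusted p = 0.0762), with the median gene at 0 (-3.25, adjusted p = 0.0540) and without the block for line and plate (-3.97, adjusted p = 0.0679). The call against matched cells was lost without C57BL6 (-4.74, adjusted p = 0.358 by edgeR), without PdgfraGFP (-4.70, adjusted p = 0.341), without Cspg4dsRED (-4.30, adjusted p = 0.104) and without PdgfrbGFP on bladder_881s (-5.19, adjusted p = 0.0682). It was also lost without the block (adjusted p = 0.217 by edgeR), with median-of-ratios factors (0.05998 by edgeR), with limma-voom (0.125), and with a matching limit of 1 SD (log2 fold change -2.10, adjusted p = 0.9996 by edgeR). In single cells the gene was patchy. At 50000 reads a read was found in 25 of 64 cluster 2 cells (39.1%), in 56.1% of matched cells and 57.03% of comparison cells, and in 24% of the mural cluster, which expresses little of it. At least 10 reads were found in 2 of 64 cells, in 27.6% of matched cells and in 28.2% of comparison cells.

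The contrast depends on which fibroblasts cluster 2 is set against. Gdf10 had 968 ± 588 reads per 500000 in cluster 8, 210.6 ± 133.3 in cluster 6 and 119.4 ± 28.4 in cluster 3 (SD over groups), but 37.4 ± 20.2 in cluster 1 and 35.3 ± 40.9 in cluster 7, beside 14.9 ± 13.3 in cluster 2. Against cluster 3 singly it was lower in 5 of 5 groups, with a log2 fold change of -3.21 that did not pass (adjusted p = 0.260 by edgeR), and with cells thinned to 50000 reads it was called (-2.96, adjusted p = 0.0165 by edgeR). Against cluster 1 and cluster 7 singly, its log2 fold change was -1.79 (adjusted p = 0.866 by edgeR) and -0.59 (adjusted p = 0.850 by edgeR). It was lower in cluster 2 in 5 of 5 groups against cluster 1 and in 4 of 6 against cluster 7. With all reads it was called against clusters 6 and 8.

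Cd55 and Mfap5 were higher in each group against matched cells without passing the test. Cd55, the complement decay-accelerating factor, ran from 375 to 688 with a median of 510 in cluster 2 and from 104.4 to 619 with a median of 269.9 in matched cells (log2 fold change 1.63, SE 0.42, adjusted p = 0.428 by edgeR, higher in 6 of 6 groups). Its level differed between the comparison clusters: over groups it was 600.5 ± 96.4 in cluster 3 and 506.6 ± 97.5 in cluster 6, beside 525.6 ± 149.5 in cluster 2, and against cluster 3 alone it was lower in cluster 2 in 4 of 5 groups by read totals, whereas the fitted log2 fold change was 0.54 and, with thinned cells, -0.15 (adjusted p = 0.544 and 0.846 by edgeR). Mfap5 ran from 273.7 to 429 in matched cells, below every value of cluster 2, as did 0.0715% of genes at 20 CPM or more (adjusted p = 0.646 by edgeR). Other genes with the smallest p in the higher direction included Fry, Ptp4a2, Cnpy2, Tsfm, Hars, Ifitm1, Mrpl21, Psmb1 and Minos1, and those in the lower direction Slc35e4, Fpgs, Slc35f6, Tamm41, Apex1, Ggt5, Mus81, Cpz, Sult1e1, Zdhhc5 and Il3ra, none of which passed. Exons of Hars, Tsfm, Mrpl21, Fpgs, Apex1, Slc35f6, Mus81 and Zdhhc5 overlap those of other genes. Fry had a mean of 114.9 ± 137.4 reads per 500000, with 709 in the deep Acta2GFP cell.

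The 86 genes of the cytosolic ribosome took 3.62 ± 0.948% of the reads in cluster 2, 2.78 ± 0.931% in matched cells and 2.45 ± 0.611% in all comparison cells (SD, n = 6). The share was higher in cluster 2 in 6 of 6 groups against both, by a mean factor of 1.498 ± 0.236 and 1.37 ± 0.313. Of 83 tested members 0 were called by edgeR, with 33 at an unadjusted p under 0.05, 12 by DESeq2 and 0 by limma-voom. Over all 13119 tested genes 3200 had an unadjusted p under 0.05 and DESeq2 called 2488. Against matched cells the counts for the family were 0, 7, 0 and 0, where 928 of all 12262 genes had an unadjusted p under 0.05. The 12 were thus a smaller share than that of all genes, of whose DESeq2 calls 2384 were lower in cluster 2, and the 7 a share near that of all genes. All 81 members at 20 CPM or more had a log2 fold change above 0 with a median of 1.15, where all 6970 genes at that level had a median of -0.76 and 1992 of them lay above 0. In 6 of 6 groups 44 members were higher, beside 2.14% of all genes at that level, of which 9.01% were lower in 6 of 6. Against matched cells the median was 0.89, where that of 6989 genes was -0.45, and 24 members were higher in 6 of 6 groups beside 2.16% of those genes, of which 4.58% were lower. Rps14 had the smallest p, with 492.99 ± 136.5 against 284.3 ± 77.02 reads per 500000 and a log2 fold change of 1.36 (adjusted p = 0.0622 by edgeR).

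The nuclear genes of oxidative phosphorylation, the chain that makes most ATP, took 1.55 ± 0.610% of reads in cluster 2, 0.942 ± 0.303% in matched cells and 0.926 ± 0.280% in comparison cells. The share was higher than in matched cells in 6 of 6 groups and higher than in all comparison cells in 5 of 6, with 0.795% against 0.826% in PdgfraGFP. Against all comparison cells 1 of 91 tested members was called, Cox4i1, which was higher, where 0.13% of all tested genes were called higher and 3.66% in either direction. Of the 91, 23 had an unadjusted p under 0.05 by edgeR, and DESeq2 called 21 and limma-voom 0. The median log2 fold change was 0.88 over 87 members at 20 CPM or more, of which 66 lay above 0, and 0.82 against matched cells. Members were not uniform: the complex I subunit Ndufa7 had 169.6 ± 94.5 against 52.998 ± 29.6 reads per 500000, whereas Sdha, the catalytic subunit of complex II, had 19.2 ± 13.5 against 119.7 ± 23.4 and was lower in 6 of 6 groups (log2 fold change -2.97, adjusted p = 0.0640 by edgeR). The 37 mitochondrially encoded genes had 29 tested members, of which 3 were called higher (0.13% over all genes), and a median of 1.10 over 14 members at 20 CPM or more, and of 0.54 against matched cells. DESeq2 called 2 of the 29 and limma-voom 5. The median log2 ratio of levels against matched cells was 0.04 in Acta2GFP, 0.05 in PdgfraGFP and -0.04 in PdgfrbGFP on bladder_074s. It was 0.65 in C57BL6, 0.47 in Cspg4dsRED and 0.57 in PdgfrbGFP on bladder_881s.

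**Figure D3:**
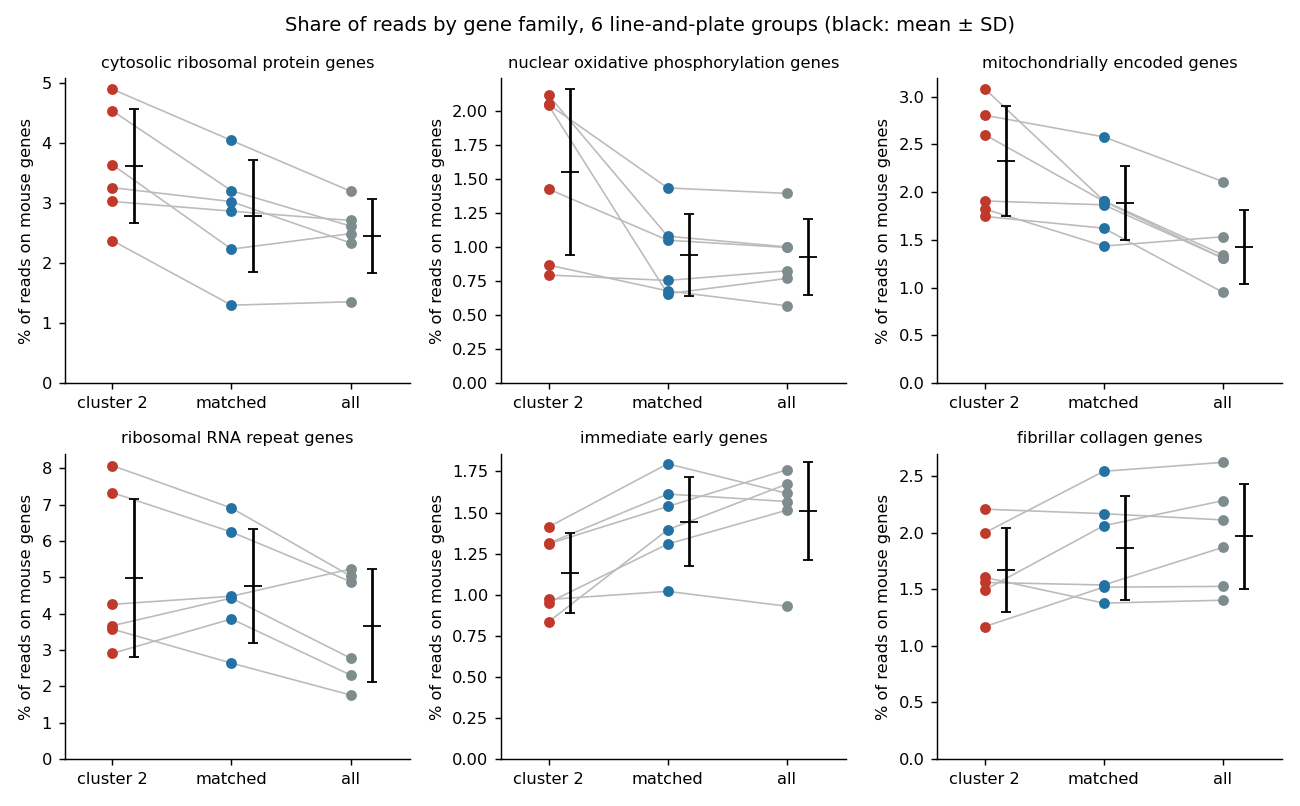
Share of gene reads in percent taken by 6 gene families in cluster 2, matched comparison cells and all comparison cells, with grey lines joining the classes of 1 line-and-plate group and black points with bars for the mean ± SD over 6 groups. The cytosolic ribosomal share is 3.62% in cluster 2 and 2.45% in all comparison cells, and the immediate early share is 1.13% and 1.51%.

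Immediate early genes, which answer within minutes to stimulation and to tissue dissociation, took the smaller share: 1.13 ± 0.241% in cluster 2, 1.44 ± 0.269% in matched cells and 1.51 ± 0.297% in all comparison cells, lower in 6 of 6 groups against matched cells and in 5 of 6 against all comparison cells, with 0.971% against 0.930% in Cspg4dsRED. Of 22 members 1 was called lower, a share near the 3.53% of all genes called lower (2 called by DESeq2 and 0 by limma-voom): the nuclear receptor Nr4a1, with 246.7 ± 179.7 against 649 ± 193.8 reads per 500000 (log2 fold change -1.63, SE 0.50, adjusted p = 0.0449 by edgeR). Its values ran from 35.3 to 535 in cluster 2 and from 310.4 to 842 in comparison cells, which overlap. Fos had 975 ± 358 against 1242 ± 251.4, Egr1 796 ± 310.9 against 1079 ± 331.97 and Junb 437 ± 216.1 against 725 ± 158.9, none of which passed. The list's median was -0.37 against all comparison cells and -0.40 against matched cells, and it turned to 1.05 and 0.34 when the median of all genes was set to 0.

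Of the 19 genes of bone morphogenetic protein and Wnt signalling, 14 were tested and 4 were called lower: Gdf10, Wnt11, the modulator Bmper and the R-spondin Rspo3. Over all genes 3.53% were called lower. The Wnt-pathway transcription factor gene Tcf7l2, which is not in the list, was called higher (log2 fold change 2.55, adjusted p = 0.0324 by edgeR). DESeq2 called 4 of the 14 and limma-voom 1. Wnt11 had 5 reads in cluster 2. Bmper and Rspo3 had 0 of 9730980 reads, which allows up to 3, and only 3.76 ± 4.03 and 1.95 ± 2.04 reads per 500000 in comparison cells. The median was -1.92 over 9 members at 20 CPM or more and -2.09 over 10 against matched cells. By group, the median against all comparison cells ran from -4.32 in Acta2GFP and -3.31 in Cspg4dsRED, with 3 cells each, to 0.03 in PdgfraGFP, and against matched cells from -2.27 in Acta2GFP to -0.12 in PdgfraGFP. Bmp4, another ligand, had 289.5 ± 81.9 against 298.9 ± 44.7 reads per 500000.

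Among the 14 genes of adventitial fibroblasts, 1 was called, Mfap5, which was higher (0.13% over all genes). DESeq2 called 2 of the 14 and limma-voom 1. Pi16, a peptidase inhibitor, had 2521 ± 876 against 2129 ± 366 reads per 500000, the stem cell antigen Ly6a 672 ± 226.4 against 493.1 ± 86.9, and Dpp4, a surface peptidase, 0.623 ± 0.675 against 9.89 ± 7.00. The 10 fibrillar collagen genes took 1.67 ± 0.373% of reads against 1.97 ± 0.464%, with 0 of 8 tested members called by edgeR, DESeq2 or limma-voom and 0 at an unadjusted p under 0.05. Other called members of the lists included Bmp3, Ncam1, Asns, Sesn2, Col8a2, Col23a1 and the proteoglycan Fmod among the lower, each with at most 13 reads in cluster 2 except Fmod, which had 20.2 ± 26.6 against 134.7 ± 78.3 reads per 500000 (adjusted p = 0.0477 by edgeR).

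The difference varied with the level of a gene, and among abundant genes the shortest stood apart from the rest. Protein-coding genes at 20 CPM or more, leaving out ribosomal protein and mitochondrial genes, were cut into 5 equal bins by mean level. Their median log2 fold changes against all comparison cells ran from -1.71 in the lowest bin over -1.34, -0.92 and -0.47 to 0.11 in the highest, and against matched cells from -1.06 over -0.85, -0.68 and -0.34 to 0.14. Within the highest bin, the bin of genes with the shortest summed exons (463 to 2104 bases) had a median of 0.76, and 79.6% of its genes lay above 0. The 4 bins of longer genes had medians of 0.05, -0.11, -0.01 and 0.07. Against matched cells the shortest bin had 0.65 and the others -0.04, -0.09, 0.03 and 0.15. Genes are not independent of each other, and these values are a description.

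**Figure D4:**
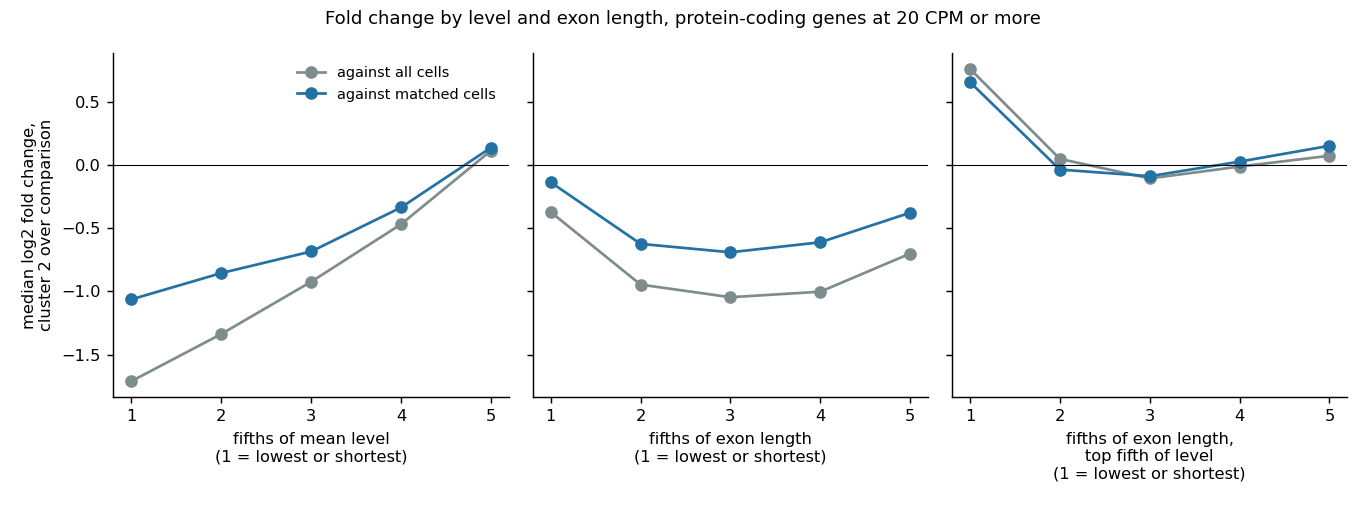
Median log2 fold change of cluster 2 in 5 equal bins of protein-coding genes by mean level, by summed exon length, and by summed exon length within the highest level bin, with grey for all comparison cells and blue for matched cells. The medians run with level from -1.71 to 0.11 in grey, and within abundant genes the shortest bin stands at 0.76 in grey and 0.65 in blue while the others lie between -0.11 and 0.15.

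Set against one cluster at a time, few genes were called. Of them, 7 were called against more than 1 cluster: mt-Cytb against clusters 1, 3 and 7, mt-Rnr2 against 1, 3 and 6, Malat1 and mt-Nd1 against 1 and 3, Gdf10 against 6 and 8, Postn against 7 and 8, and Gpx3 against 7 and 8 in opposite directions. These comparisons were not matched on depth. With cells thinned to 50000 reads the adjusted p passed the threshold no longer for Pcdh19 and Nfu1 against cluster 1 (adjusted p = 0.280 and 0.245 by edgeR), Pgf against cluster 6 (0.0727 by edgeR) and Fry against cluster 7 (0.0919 by edgeR). Their log2 fold changes were 4.16, 3.55, 3.68 and 3.70 with thinned cells, against 5.35, 4.85, 5.48 and 4.84 with all reads. The log2 fold change came under 1, and the call was lost with it, for mt-Rnr2 against clusters 1 and 6 (0.89 and 0.88), Dcn, CT010467.1 and Gm42418 against cluster 3 (0.92, 0.99 and 0.99) and mt-Cytb against cluster 7 (0.92). Other calls were gained, and with thinned cells 28, 29, 78, 37 and 66 genes were called in all against clusters 1, 3, 6, 7 and 8. The gains included Ptp4a2 against clusters 1, 3, 7 and 8 (adjusted p = 0.00198, 0.0273, 0.0145 and 0.0473 by edgeR), Mfap5 against clusters 1 and 6 (0.00402 and 1.29e-05 by edgeR) and Gdf10 against cluster 3. Against cluster 1, 7 of 11994 genes were called (0.0584%), all higher in cluster 2. They included mt-Rnr2, mt-Cytb, mt-Nd1 and Malat1. Spon2, a matrix protein of the spondin family, had 624 ± 294.8 against 135.6 ± 84.8 reads per 500000 (log2 fold change 2.54, SE 0.56, adjusted p = 0.0143 by edgeR) and was higher in 4 of 5 groups. The protocadherin Pcdh19 and the iron-sulphur cluster scaffold Nfu1 were the others. Against cluster 3, 9 of 12661 were called (0.0711%), all higher: CT010467.1, Gm42418 and AY036118, which share exons of one ribosomal RNA repeat and cannot be told apart, mt-Rnr2, mt-Cytb, mt-Nd1, Malat1, Dcn and the membrane protein Tmem176b. Dcn had 5082 ± 369 against 3089 ± 711 reads per 500000.

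Against cluster 6, 9 of 12379 genes were called (0.0727%), 6 higher (0.0485%) and 3 lower (0.0242%). Timp3, an inhibitor of matrix metalloproteinases, had 790 ± 135.1 against 129.1 ± 67.4 reads per 500000 (log2 fold change 3.33, SE 0.51, adjusted p = 0.000669 by edgeR). The mitochondrial ribosomal RNA mt-Rnr2 was again higher (log2 fold change 1.01, adjusted p = 0.0126 by edgeR). Syn3 lies over Timp3 on the opposite strand, so its call cannot be told apart from that of Timp3. Tmem100 had 122.8 ± 93.98 against 6.82 ± 7.35, the alarmin Il33 347 ± 208.5 against 86.03 ± 39.8 and the growth factor Pgf 70.9 ± 99.9 against 5.97 ± 5.73. Thrombospondin 2 (Thbs2) was lower, with 340.3 ± 149.2 against 1818 ± 490.4, as were Fibin and Gdf10.

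Against cluster 7, 11 of 12601 genes were called (0.0873%), 9 higher (0.0714%) and 2 lower (0.0159%). The lipocalin Apod had 864 ± 542 against 144.8 ± 84.2 reads per 500000 (log2 fold change 2.77, SE 0.43, adjusted p = 0.000182 by edgeR), the adipokine relative C1qtnf3 276.97 ± 200.98 against 13.2 ± 14.1, and Mgp 2044 ± 454 against 952 ± 191.02. Dpep1, Igf1, Gpx3, Smoc2, Fry and mt-Cytb were also higher. Periostin (Postn), a matricellular protein, had 5.72 ± 8.72 against 106.5 ± 70.3 and Chodl 3.34 ± 3.78 against 142.2 ± 25.4.

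Against cluster 8, 19 of 12582 genes were called (0.151%), 4 higher (0.0318%) and 15 lower (0.119%). The neuropeptide Y receptor Npy1r had 285.4 ± 188.5 against 29.6 ± 22.7 reads per 500000, Pi16 2521 ± 876 against 834 ± 279.8, Cd55 525.6 ± 149.5 against 126.8 ± 55.1 and the semaphorin Sema3c 249.4 ± 138.2 against 68.1 ± 55.8. Lower were Gdf10 (14.9 ± 13.3 against 928 ± 622, log2 fold change -6.59, SE 0.68, adjusted p = 6.24e-12 by edgeR), Myoc (34.5 ± 42.4 against 484 ± 287.005), the cartilage protein Cilp (16.5 ± 17.96 against 416 ± 119.1), Fmod, Sult1e1, Hmcn2, Pdlim4, Postn, Angptl7, Gpx3, Col6a3, Cdh13, Apoe, Penk and Thbs1. The antioxidant enzyme Gpx3 thus lay between, with 629 ± 263.3 in cluster 2, 123.7 ± 63.03 in cluster 7 and 2037 ± 883 in cluster 8.

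**Figure D5:**
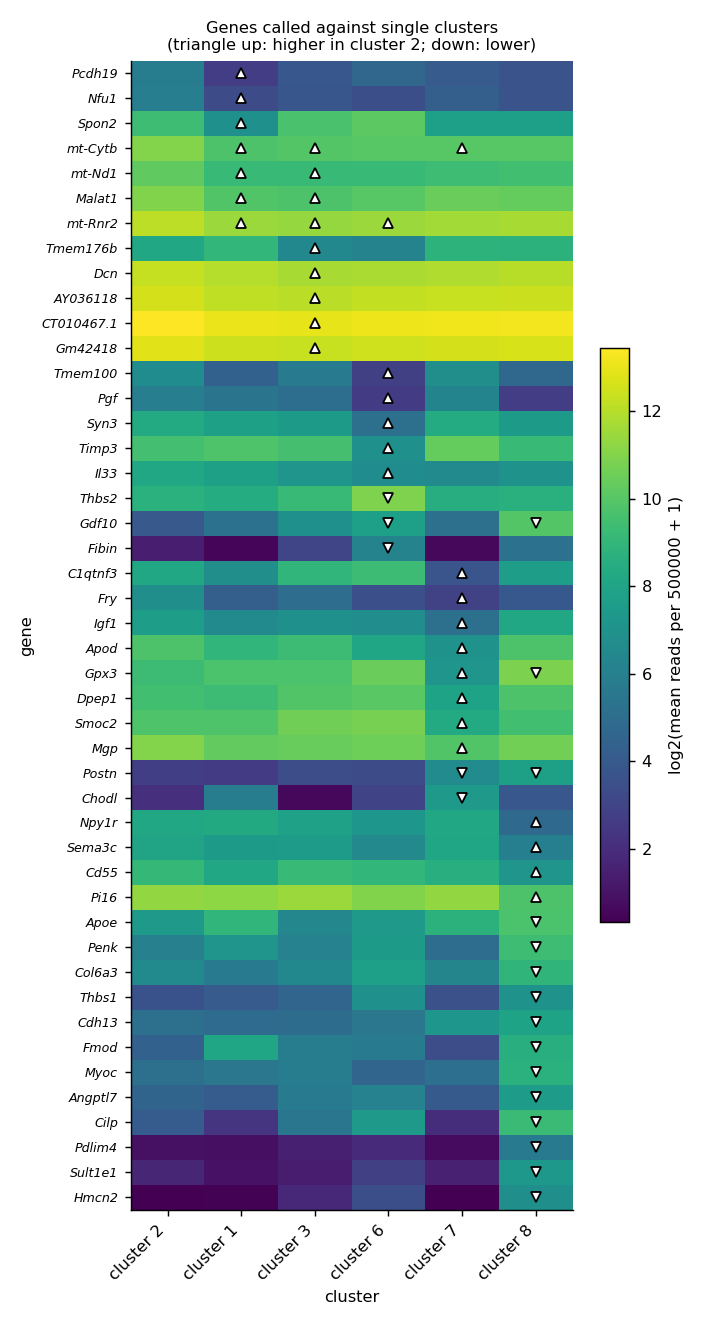
Mean level over groups, as log2(reads per 500000 + 1), of the 46 genes called in at least 1 comparison of cluster 2 with a single cluster, for clusters 1, 2, 3, 6, 7 and 8, with triangles at the cluster against which a gene was called, pointing up where cluster 2 is higher. Low levels are dark and high levels bright. Gdf10 and Postn are dark in cluster 2 and brightest in cluster 8, and Gpx3 points up for cluster 7 and down for cluster 8.

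Exons of Cd55, Tmem176b, Myoc, Penk, Thbs1 and Pcdh19 also overlap those of other genes. The genes that held in each fit with 1 group left out were CT010467.1 against cluster 3, Timp3 and Tmem100 against cluster 6, Apod, C1qtnf3 and Mgp against cluster 7, and Gdf10, Myoc, Cilp, Fmod, Npy1r, Pi16 and Cd55 against cluster 8. None of the 7 genes against cluster 1 did. Without Acta2GFP, whose sum is mostly the deep cell, the counts were 25, 36, 58, 33 and 30 against clusters 1, 3, 6, 7 and 8. The fits against clusters 1, 3 and 6 used 5 groups with 59 cells of cluster 2, and the other two all 6 with 62.

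At equal reads and over 14454 genes, the mean correlation between cells of the same group was 0.373 within cluster 2, 0.372 within the matched cells and 0.367 between both, as means over 6 groups. It was higher within cluster 2 than within matched cells in 4 groups, C57BL6 (0.356 and 0.351), PdgfraGFP (0.330 and 0.318), and PdgfrbGFP on bladder_074s (0.436 and 0.429) and bladder_881s (0.450 and 0.414). It was lower in Acta2GFP (0.354 and 0.400) and Cspg4dsRED (0.313 and 0.321), with 3 cells of cluster 2 each. These values share the base level set by sparse counts and are a description.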

How the data were processed

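Single cells of mouse bladder were profiled with Smart-seq2, 1 sample per cell. The authors deposited one table of unnormalised read counts, with 46517 genes and 92 ERCC species in rows and 1479 cells in columns. By the methods of the study, reads were trimmed, mapped to GRCm38 with TopHat2 and counted with featureCounts, and shallow cells, cells with very many genes, cells rich in spike-in or mitochondrial reads, cells lacking both PDGF receptor transcripts and cells with endothelial or immune signatures were removed. The annotation release and the strand setting are not given in the sources used here. No doublet caller was run here, and no 2 cells had identical counts. Gene names and positions came from GENCODE M21, which covered 46005 of the identifiers.

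Counts were summed over the cells of a class within each line on a plate, with at least 3 cells of both classes, and tested with edgeR 4.0.16 (TMM scaling, filterByExpr, quasi-likelihood test, line-and-plate block, Benjamini-Hochberg adjustment). A gene was called at an adjusted p under 0.05 and a log2 fold change of at least 1 in size. Levels are means over cells of the reads per 500000 gene reads of each cell. Matching minimised the distance in log reads, detected genes and mitochondrial share, 2 cells to 1 without replacement, each measure divided by its SD in the group. Per-cell measures were compared by exact sign-flip permutation over 6 groups. Because both classes come from the same group, the block pairs them by plate and line. Sample labels name no animal, so that groups may share mice and p-values may be too small. The scripts were tested on simulated data.

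Named genes were the 12 per direction with the smallest p among those with the same sign in every group and at least 10 reads per 500000 in the higher class, every called gene where under 25 were called, the most abundant markers, and the called and lowest-p members of each list described. A few genes that this rule names are not reported here. The members of the cluster and the gene lists were chosen with earlier results of these data known. DESeq2 1.42.0, limma 3.58.1 with voom, other scalings, filters, groupings and matchings, and thinning to 50000 reads served as alternatives. Intervals are exact binomial intervals on counts of cells and cover counting error only. They take cells as independent, which cells of 1 line and plate may not be. R 4.3.3, Python 3.11.15, numpy 2.4.6, scipy 1.17.1, pandas 2.3.3 and matplotlib 3.10.9 were used.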

Additional observations from a re-analysis of the deposited data

Results flagged for a closer look

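In 13 of the 65 sets of 6 group values that were examined (20.0%), 1 group stood apart from the other 5 by more than Dixon's 95% critical gap of 0.625 of the range. For normally distributed values chance gives about 1 in 20, and for levels near 0 the rate is not known. The difference in distance to the plate edge was 1.971 wells for Acta2GFP on bladder_515s, the others lying at -0.0455 wells or below. Among genes called lower with few reads, the level in cluster 2 was 1.457 reads per 500000 for Mus81, 2.045 for Slc35e4 and 2.075 for Hdac10 in PdgfrbGFP on bladder_074s, and 2.096 for Fgfr3, 1.865 for Aatk, 2.106 for 1600014C10Rik and 1.649 for Flad1 in PdgfrbGFP on bladder_881s, each from a handful of reads. Cspg4dsRED on bladder_352s, a group of 3 cells, held 778.3 reads per 500000 of Cnpy2 (next highest group 241.9) and 87.93 of Cpz (next 7.50). Acta2GFP on bladder_515s held 401.1 of Hars (next 101.6) and 19.44 of Zdhhc5 (next 3.45). C57BL6 on bladder_443s held 14.05 of Ggt5 (next 3.48).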

How the results depend on the processing

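Counts of called genes moved most. Against all comparison cells, where 480 were called, DESeq2 called 2488, comparison with all fibroblast clusters but 2 and 5 1439, limma-voom 250, the median gene at 0 550, median-of-ratios factors 558, groups of at least 5 cells 21, thinned cells 2, no filter 1 and sums per line 1. Without the deepest Acta2GFP cell, an alternative chosen after seeing the data, 1.41% of tested genes were called in place of 3.66%. Leaving out 1 group gave 0 to 9 (without C57BL6 0, PdgfrbGFP on bladder_074s or bladder_881s 1, PdgfraGFP 3, Cspg4dsRED 7 and Acta2GFP 9). Against matched cells, where 1 was called, the counts were DESeq2 408, median gene at 0 41, groups of at least 5 cells 6, 1 matched cell each 2, sums per line 2, and 0 with limma-voom (1113 at an unadjusted p under 0.05), median-of-ratios factors (916) and a distance of at most 1 SD, and leaving out 1 group gave 0 to 3. Without the replicate block that pairs the classes by group, 0 genes were called in both comparisons (1871 and 938 at an unadjusted p under 0.05). Thinned, the comparisons with clusters 1, 3, 6, 7 and 8 called 28, 29, 78, 37 and 66 genes, and with 1 group left out 1 to 25, 1 to 36, 2 to 58, 4 to 33 and 11 to 30. The cause of these moves was not tested.

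Of 862 values of named genes under the alternatives, 572 kept direction and side of the threshold, 47 gained the call, 0 turned direction and the others lost the call. The log2 fold change of Gdf10 lay between -5.47 and -2.10 against matched cells. The median of the immediate early genes turned from -0.37 to 1.05 against all comparison cells and from -0.40 to 0.34 against matched cells with the median gene at 0. The read difference was -96579.9 by medians (exact permutation p = 0.03125), the mitochondrial difference 0.861 points over 5 lines (exact permutation p = 0.0625) and 0.735 to 1.02 with 1 group left out, where 0.0625 is the smallest p that 5 units allow. Cells nearest to the mean of cluster 2 numbered 29 with all genes above 1 CPM. Groups of 3 cells (Acta2GFP and Cspg4dsRED) and few reads per cell limit what could be separated for rare genes.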
